A study of Mus musculus with 4 samples.

Results

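The Otx2os1/Ebf3 GABA nuclei are inhibitory neuron nuclei of the mouse brain that carry transcripts of Otx2os1, the long noncoding RNA transcribed next to the homeobox gene Otx2, or of Ebf3, a helix-loop-helix transcription factor. They were chosen by unique molecular identifiers (UMIs, each taken as 1 captured RNA molecule). A nucleus was a member with at least 2 UMIs of Gad1 plus Gad2, which make GABA, and at least 2 UMIs of Otx2os1 plus Ebf3. It also had at most 1 UMI of Slc17a7, 0 of Slc17a6 (the vesicular glutamate transporters), 0 of Drd1 plus Drd2 (dopamine receptors) and at most 1 of Vip plus Sst (interneuron peptides). This rule found 394 of 52132 kept nuclei (0.756%), which were 5.01% of the 7869 nuclei with at least 2 Gad1 plus Gad2 UMIs. The rule used measured counts, so the levels of these 10 genes and every contrast of the members with other neurons are descriptions and carry no test.

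GABA neurons of the cortex and striatum arise from the ganglionic eminences and keep genes of the Dlx family and its partners. GABA neurons of the midbrain, pretectum and thalamic region are specified by other factors, among them Otx2, the zinc finger factor Gata3, the helix-loop-helix factor Tal1 and the SRY-box factor Sox14. Such neurons include the local and projecting inhibitory cells of the tectum and midbrain.

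The study asked how reduced signaling through CSF-1R, the receptor microglia need for survival, affects the cells of the brain. The labels name the tissue as brain, with no region. Nuclei came from 2-month-old female C57/BL6 mice, either wild type (WT) or Csf1r+/- (heterozygous, 1 functional Csf1r allele in every cell), all untreated and perfused before a detergent-free isolation with removal of myelin debris. There were 2 libraries of each genotype, each from 1 mouse, and the libraries are named here by genotype and replicate. WT replicate 1 held 111 members and WT replicate 2 held 115, while Csf1r+/- replicates 1 and 2 held 96 and 72. Their median depth was 5522, 5342, 6624 and 6224.5 UMIs per nucleus in that order, and their summed UMIs were 788360, 719861, 752486 and 526263. No barcode of a member was shared between libraries. Members held 1, 6, 6 and 4 Csf1r UMIs, too few to check the genotype. Over all kept nuclei the Csf1r level in CPM (UMI counts scaled to the same summed total in each library) was 3.04 and 6.53 for the WT libraries and 6.68 and 6.36 for the Csf1r+/- libraries, so it was not lower there, and this level also depends on how many microglial nuclei a library holds. In 159 to 223 nuclei a library with at least 3 UMIs of other microglia markers, at least 1 of them from Inpp5d, Apbb1ip or Cx3cr1, and none of Gad1, Gad2, Slc17a7 or Slc17a6, a choice made after those levels were seen, the level was 374 and 382 CPM for the WT libraries and 308 and 228 CPM for the Csf1r+/- libraries. In these nuclei both Csf1r+/- libraries were below both WT libraries.

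The share of members among the kept nuclei did not differ between genotypes beyond the spread between libraries. Their share was 0.689% and 0.754% in the WT libraries and 1.001% and 0.644% in the Csf1r+/- libraries. The 95% Wilson intervals were 0.572 to 0.829% and 0.629 to 0.905% for WT, and 0.821 to 1.22% and 0.512 to 0.810% for Csf1r+/-; they cover counting error only. The Csf1r+/- libraries lay on both sides of the WT libraries. The difference of the means was 0.101 percentage points (WT 0.722 ± 0.0462%, Csf1r+/- 0.823 ± 0.253%, SD, n = 2 libraries each; two-sided exact permutation test, p = 1). With 2 libraries against 2 the smallest p this test can give is 0.3333. As a share of Gad1 plus Gad2 nuclei, the members stood at 4.90% and 4.78% in WT and at 5.30% and 5.18% in Csf1r+/- (difference 0.397 points, exact permutation p = 0.3333). By this measure both Csf1r+/- libraries lay above both WT libraries. Nuclei of the Csf1r+/- libraries were deeper (median of all kept nuclei 7454 and 6656 UMIs, against 5490 and 4636 in WT). After every nucleus was thinned to 2000 UMIs, the shares were 0.184% and 0.160% in WT and 0.180% and 0.0953% in Csf1r+/-, a difference of -0.0339 points (exact permutation p = 0.667).

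**Figure D1:**
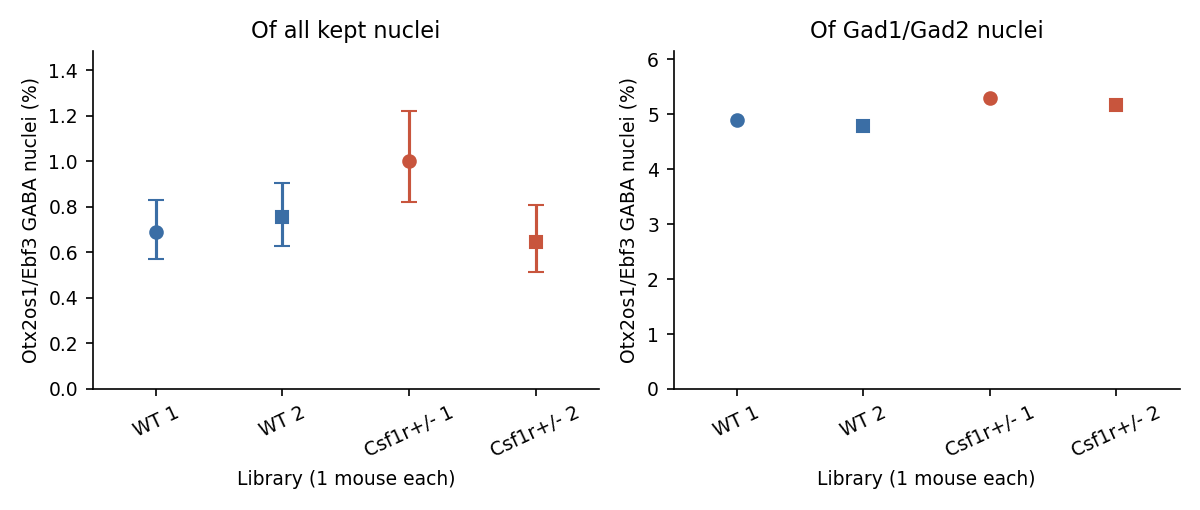
Share of Otx2os1/Ebf3 GABA nuclei in each library, as a percent of all kept nuclei (left, bars are 95% Wilson intervals) and of nuclei with at least 2 Gad1 plus Gad2 UMIs (right). In the left plot the 2 Csf1r+/- libraries lie above and below the WT libraries at 1.001% and 0.644%. In the right plot all 4 libraries lie between 4.78% and 5.30%, both Csf1r+/- libraries above both WT libraries.

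Just outside the rule stood 181 nuclei with exactly 1 UMI of Otx2os1 plus Ebf3 that met all other terms. In the order WT replicates 1 and 2 and Csf1r+/- replicates 1 and 2, Zfhx3 was found in 67.3%, 47.1%, 69.2% and 66.7% of these nuclei. It was found in 78.6%, 73.5%, 65.5% and 69.6% of the members with exactly 2 UMIs. Sox6, a factor of cortical interneurons, was found in 19.2%, 23.5%, 7.69% and 10.3% of the 1-UMI nuclei and in 3.57%, 14.7%, 6.90% and 4.35% of the 2-UMI members. Zfhx3 was thus more frequent just inside the rule in 3 of 4 libraries, most so in WT replicate 2, and Sox6 less frequent in all 4. Otx2 was found in 15.4%, 13.7%, 17.9% and 7.69% of the 1-UMI nuclei and in 10.7%, 23.5%, 20.7% and 4.35% of the 2-UMI members. It was more frequent just inside the rule in WT replicate 2 and Csf1r+/- replicate 1 only.

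Among the rule genes, Otx2os1 carried most of the choice. It stood at 675 and 674 CPM in the WT members and at 651 and 640 CPM in the Csf1r+/- members, where CPM relates the UMIs of a gene to the summed UMIs of the same nuclei. Ebf3 stood at 71.0, 72.2, 71.8 and 62.7 CPM in the same order. Otx2os1 lies on chr14:48668708-48870683 of the forward strand (GRCm38, GENCODE M21 annotation) and is a long intergenic noncoding RNA. Its start overlaps the start of Otx2 (chr14:48657677-48673819, reverse strand) over 5112 bases in the opposite direction, and the library chemistry keeps strand. Ebf3 lies on chr7:137193673-137314445 of the reverse strand.

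The members were compared with 5025 other GABA nuclei that met the same terms with 0 UMIs of Otx2os1 and Ebf3. Transcription factors of midbrain and hindbrain GABA neurons stood higher in the members. Of 21 genes on this list, 12 had at least 10 UMIs in the members, and 11 of these 12 were higher in the members of all 4 libraries. Over all 12085 genes with at least 10 UMIs, 15% were higher in all 4 libraries. The median log2 difference of the 12 genes was 1.95, with 1 CPM added to each level, against 0.02 over all genes. The exception was Irx2, higher in 3 of 4 libraries. Since the members were picked for RNA from the Otx2 locus, the level of Otx2 is not independent of the rule.

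Otx2, a homeobox factor that sets midbrain fate, stood at 34.2, 57.0, 51.8 and 43.7 CPM in the members of WT replicates 1 and 2 and Csf1r+/- replicates 1 and 2. In the other GABA nuclei it stood between 0.640 and 1.30 CPM. Every member library was far above every library of the other GABA nuclei. Gata3, a zinc finger factor that sets GABA identity in the midbrain, stood at 39.3, 34.7, 54.5 and 43.7 CPM in the members and between 4.49 and 8.48 CPM in the others. Tal1, a helix-loop-helix partner of the GATA factors, stood at 16.5, 22.2, 35.9 and 26.6 CPM in the members and between 2.44 and 4.48 CPM in the others. For both genes the member libraries did not overlap the others. Zfpm2, a zinc finger cofactor of GATA proteins (also called Fog2), stood at 1131, 1214, 1334 and 1343 CPM against 315 to 531 CPM. It was found in 87.6% of members and in 48.1% of the others. Zfpm2 was not particular to these neurons: in Slc17a7 glutamatergic nuclei, which were deeper, it averaged 537 CPM and was found in 63.7%.

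Sox14, an SRY-box factor of midbrain and thalamic GABA neurons, averaged 16.2 ± 4.37 CPM in the members (SD, n = 4 libraries) and 1.85 ± 0.901 CPM in the other GABA nuclei. Pax7, a paired-box factor of the dorsal midbrain, averaged 24.2 ± 6.31 against 2.20 ± 0.837 CPM. Lhx1, a LIM homeobox factor, averaged 24.1 ± 6.94 against 5.25 ± 1.31 CPM. All 3 were sparse: a UMI was found in 9.64%, 10.7% and 13.5% of members. In Slc17a7 glutamatergic nuclei, which should lack these factors and were deeper (library medians 8888 to 13174.5 UMIs), the shares were 0%, 0.0730% and 0.292%. Gata2 and Tal2 had 6 and 1 UMIs over all members and En1 and En2 had 3 and 2, so no level is given for them.

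At least 1 UMI of Otx2, Gata3, Tal1, Sox14, Pax7 or Lhx1 was found in 253 of the 394 members (64.2%). By library the shares were 59.5% and 55.7% in WT and 75.0% and 70.8% in Csf1r+/-, and the Csf1r+/- members were also deeper; the part of depth in this was not tested. Otx2 was found in 96 members and Gata3 in 91, with 26 members holding both. Otx2 and Tal1 were found together in 15 members, and Otx2 and Sox14 in 10. If each gene were found independently, 22.2, 15.1 and 9.26 members would be expected to hold these pairs, in the same order. For these pairs the joint counts were close to those of independent genes. Some other pairs were found together more often: Tal1 and Sox14 in 11 members (5.98 expected), Tal1 and Pax7 in 11 (6.61 expected). Otx2 and Lhx1 were found together in 18 (12.9 expected). Tal1 and Lhx1 (8, 8.34 expected) and Gata3 and Sox14 (8, 8.78 expected) were slightly below. After each nucleus was thinned to 2000 UMIs, Otx2 remained in 11.2% of members, Gata3 in 7.79% and Lhx1 in 7.01%.

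The promoters of Otx2, Gata3 and Tal1, the factors of this list found in most members after Zfpm2, are shown because these genes set the members apart from other GABA nuclei. Each run is the 250 bases before the most upstream RefSeq start (GRCm38.p6), read 5′ to 3′ on the strand of the gene. Capitals mark matches to GATAA on either strand, a core that GATA proteins bind. Positions are chr14:48667645-48667894 (reverse strand) for Otx2, chr2:9878601-9878850 (reverse strand) for Gata3 and chr4:115056176-115056425 (forward strand) for Tal1. The GENCODE gene starts lie 6175 bases upstream of the RefSeq start used for Otx2 and 11434 bases upstream of that for Gata3, so these windows lie inside the GENCODE genes; for Tal1 both starts are the same.
Otx2: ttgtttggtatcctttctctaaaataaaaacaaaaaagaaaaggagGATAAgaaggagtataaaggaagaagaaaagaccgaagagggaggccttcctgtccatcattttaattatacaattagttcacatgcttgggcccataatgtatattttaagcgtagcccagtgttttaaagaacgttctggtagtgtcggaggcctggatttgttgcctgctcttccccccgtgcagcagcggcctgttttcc
Gata3: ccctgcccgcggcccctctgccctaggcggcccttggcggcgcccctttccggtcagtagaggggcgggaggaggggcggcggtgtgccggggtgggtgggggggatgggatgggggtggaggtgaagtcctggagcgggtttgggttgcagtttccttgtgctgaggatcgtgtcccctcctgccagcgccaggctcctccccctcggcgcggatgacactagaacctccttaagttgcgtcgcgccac
Tal1: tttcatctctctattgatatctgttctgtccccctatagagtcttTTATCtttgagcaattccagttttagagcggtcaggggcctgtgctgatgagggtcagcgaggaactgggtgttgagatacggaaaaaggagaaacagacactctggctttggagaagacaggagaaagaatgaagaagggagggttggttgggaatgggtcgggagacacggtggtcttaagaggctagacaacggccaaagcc

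The Otx2 and Tal1 windows each held 1 match to GATAA and the Gata3 window held 0. Of 32851 RefSeq promoters, 22.6% held the motif in the same window. TAATCC, the core of OTX sites, and CAGATG, a core bound by TAL1, were searched on both strands; they were in 6.25% and 14.4% of all promoters and in none of the 6 promoters read (Otx2, Gata3, Tal1, Sox14, Pax7 and Lhx1). None of these motifs overlapped another in these windows. A match is a description of the letters only.

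Genes of forebrain GABA neurons stood lower in the members. Of 15 cortical interneuron genes, 13 had at least 10 UMIs and 11 of these were lower in the members of all 4 libraries, against 11.3% of all genes. Erbb4, the neuregulin receptor of interneurons, stood at 1530, 1109, 1130 and 1083 CPM in the members and averaged 5115 ± 455 CPM in the others. Sox6 stood at 29.2, 40.3, 29.2 and 95.01 CPM against an average of 290 ± 35.8 CPM. Neither gene overlapped between the 2 kinds of nuclei. Lhx6, the factor of interneurons from the medial ganglionic eminence, had 4 UMIs in all members and averaged 14.4 ± 1.57 CPM in the others. Dlx6os1, a noncoding RNA of the Dlx5 and Dlx6 locus, stood at 64.7, 9.72, 18.6 and 19.0 CPM in the members and at 205 ± 20.9 CPM in the others, with WT replicate 1 the highest of the member libraries. Of 8 prethalamic factors with at least 10 UMIs, 2 were higher and 5 lower in all 4 libraries. Of 9 striatal genes, 1 was higher and 5 lower. Meis2, a homeobox cofactor of striatal and olfactory lineages, averaged 288 ± 47.6 against 826 ± 186 CPM.

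Zfhx3, a zinc finger homeobox gene listed as a marker of this population and not used to choose it, stood at 708 and 770 CPM in the WT members and at 587 and 462 CPM in the Csf1r+/- members, against 292 to 328 CPM in the other GABA nuclei. It was found in 67.8% of members and 35.1% of the others. Its relative Zfhx4 averaged 284 ± 40.4 against 121 ± 15.5 CPM. Zfhx3 was not particular to GABA neurons, with an average of 634 CPM in Slc17a6 glutamatergic nuclei. The Ebf1 and Ebf2 relatives of Ebf3 averaged 96.2 ± 42.1 and 17.6 ± 12.4 CPM in the members, against 25.1 ± 5.98 and 4.04 ± 2.41 CPM. The label of the population, GABA neurons outside the cortex, was not contradicted by these markers. Most cortical interneuron genes stood lower than in the other GABA nuclei, though Erbb4 averaged 1213 CPM, against 1085 CPM over all kept nuclei. At least 1 UMI of Otx2, Gata3, Tal1, Sox14, Pax7 or Lhx1 was found in 64.2% of members, and Otx2 is not independent of the rule. Gad2 was in 92.9% of members, a share that the rule largely set. The labels name whole brain as the tissue, so no position in the brain was known.

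**Figure D2:**
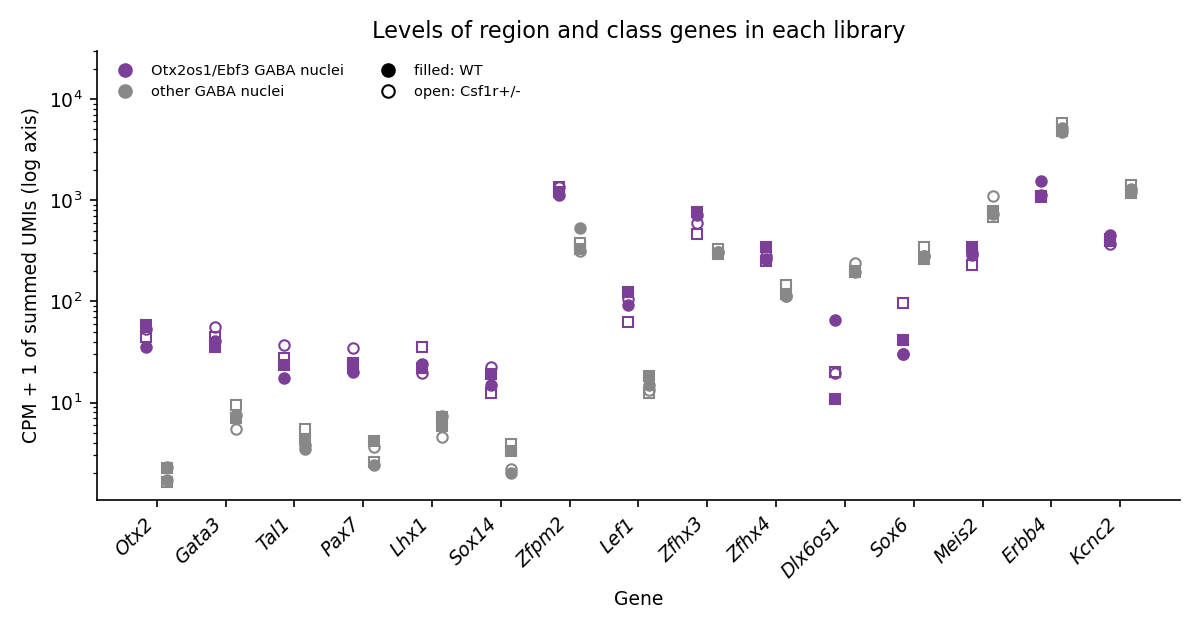
Levels (CPM plus 1, log axis) of region and class genes in the Otx2os1/Ebf3 GABA nuclei and in other GABA nuclei, 1 point per library, filled for WT and open for Csf1r+/-. The midbrain factors Otx2 to Zfpm2 and Lef1, Zfhx3 and Zfhx4 lie higher in the members; Dlx6os1, Sox6, Meis2, Erbb4 and Kcnc2 lie lower.

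Genes outside the rule were ranked by the ratio of the members to the other GABA nuclei in the lowest library. Lef1 stood first among those found in at least 25% of members of every library. Lef1, a transcription factor of the WNT pathway, stood at 90.1, 122, 105 and 60.8 CPM in the members and averaged 13.7 ± 2.55 CPM in the others, a ratio of 6.88 between the means. It was found in 35.3% of members and 4.18% of the others. The next genes were Fat4, a giant cadherin, at 74.3 ± 7.93 against 19.5 ± 2.95 CPM, and Unc13c, a synaptic vesicle priming factor, at 494 ± 62.5 against 153 ± 18.6 CPM. Syt9, a synaptotagmin, followed at 95.6 ± 19.0 against 26.3 ± 2.74 CPM and Dpf3, a chromatin remodeling subunit, at 96.0 ± 3.02 against 32.2 ± 4.91 CPM. The 20 genes of this ranking also held Zfpm2, Zfhx4, Vav3, Tshz2, Trpm3, Plcb4 and Rmst.

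The machinery of GABA release was present. Slc32a1, the vesicular GABA transporter, stood at 39.3, 51.4, 61.1 and 41.8 CPM in the members and averaged 41.5 ± 4.53 CPM in the other GABA nuclei, and the libraries overlapped. Of 23 GABA and glycine receptor and scaffold genes with at least 10 UMIs, 7 were higher and 8 lower in the members of all 4 libraries. Over all genes 15% were higher and 11.3% lower. Glra1, a glycine receptor subunit, averaged 41.9 ± 13.1 against 13.02 ± 3.92 CPM, and Gabrd, the delta subunit of the GABA-A receptor, 4.33 ± 2.73 against 23.5 ± 3.94 CPM. Of 23 glutamate receptor genes, 7 were higher and 9 lower in all 4 libraries. The metabotropic receptor Grm8 averaged 960 ± 95.1 against 524 ± 10.2 CPM, and its libraries did not overlap between the 2 kinds of nuclei.

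Of 28 potassium channel genes, 13 were lower and 4 higher in the members of all 4 libraries, against 11.3% and 15% of all genes. Kcnc2, the Kv3.2 channel of fast-spiking interneurons, averaged 405 ± 37.4 CPM in the members and 1276 ± 110 CPM in the others. Of 23 sodium, calcium and HCN channel genes, 4 were higher and 6 lower. Peptides and calcium-binding proteins were scarce: 8 of 18 genes had at least 10 UMIs and 6 of these were lower in all 4 libraries, none higher. The genes of acetylcholine synthesis and transport on the list had 0 UMIs in every member. Of 60 region and transmitter genes, 31 were found in a larger share of members than of other GABA nuclei in all 4 libraries, and 20 after thinning to 2000 UMIs.

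The members split by the 2 genes that chose them. Otx2os1 alone was found in 322 members (81.7%), Ebf3 alone in 42 (10.7%) and both in 30 (7.61%). Members with Otx2os1 alone carried Zfhx3 and Zfhx4 at 796 and 352 CPM. Members with Ebf3 alone carried them at 199 and 71.7 CPM, and Ebf1 and Ebf2 at 317 and 109 CPM against 20.1 and 1.87 CPM in those with Otx2os1 alone. Those with Ebf3 alone were also deeper, with a median of 9371 UMIs against 5502 UMIs. Members with both had Ebf1 at 456 CPM, Gata3 at 102 CPM and Gli3, a zinc finger mediator of hedgehog signaling, at 130 CPM, while Zfhx3 was 41.9 CPM and Ebf2 had 0 UMIs. Otx2 was found in 26.7% of members with Otx2os1 alone, in 23.3% of those with both and in 7.14% of those with Ebf3 alone. The share with both was 6.31% and 3.48% of the WT members and 12.5% and 9.72% of the Csf1r+/- members. The share with Ebf3 alone was 12.6% and 10.4% in WT and 9.38% and 9.72% in Csf1r+/-. That with Otx2os1 alone was 81.1% and 86.1% in WT and 78.1% and 80.6% in Csf1r+/-. These classes rest on counts that the rule used, so their shares carry no test.

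Clustering of the members on genes outside the rule gave 9 subclusters of 12 to 137 nuclei, described here by their leading genes without a cell type name. Subcluster 1 (137 nuclei) was led by Megf11, Gpc5, Cntnap5c, Ebf1 and Nfia and held 31 of the 42 members with Ebf3 alone. Subcluster 2 (69 nuclei) was led by Gulp1, Ntng1, Zfhx3, Olfm3 and Plch1, with Zfhx3 at 1711 CPM and a UMI in 98.6% of its nuclei. Subcluster 3 (40 nuclei) was led by the nicotinic receptor subunit Chrnb3, Hmcn1, the GABA receptor subunit Gabrr2, Pcbp3 and Frem1. It had Otx2 in 52.5%, Sox14 in 37.5%, Lhx1 in 30.0% and Meis2 in 95% of its nuclei. Subcluster 5 (31 nuclei) was led by Dcn, Qrfpr, Gm13601, Cubn and Stk33, with Nfib in 96.8% and Zfhx3 in only 22.6%.

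Subcluster 6 (29 nuclei) was led by Gbe1, Pax7, Tmem132cos, 2700069I18Rik and Gm47757, with Pax7 in 41.4% of its nuclei at 176 CPM. Subcluster 7 (21 nuclei) was led by Tcf7l2, Dach2, St3gal1, Gm49191 and Fgf10, with Tcf7l2 in 71.4% and Gata3 in 57.1% of its nuclei and 0 UMIs of Meis2, Lef1, Sox14 and Pax7. Subcluster 8 (19 nuclei) was led by Gli3, Aff1, Cecr2, Car8 and Ebf1 and held 14 of the 30 members with both rule genes. It had Gata3 in 63.2% and Zfhx3 in 5.26% of its nuclei. The midbrain factors were thus spread unevenly, with Sox14 and Otx2 most often found in subcluster 3, Pax7 in subcluster 6 and Gata3 in subclusters 7 and 8.

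Subclusters 4 and 9 carried genes of other cell types and are treated as mixed in content. Subcluster 4 (36 nuclei) was led by Cmya5, Scube1, Ramp1, Kcnmb4 and Ptk2b and had Nrgn, a calmodulin-binding protein of forebrain excitatory neurons, in 52.8% of its nuclei, against at most 25% in any other subcluster. Subcluster 9 (12 nuclei) was led by Prr5l, Aspa, Cdh19, Gjc3 and Bcas1, genes of oligodendrocytes, and had the myelin gene Mobp in 100% of its nuclei. Their median depths were 10462.5 and 11621.5 UMIs, against 3718 to 6678 UMIs in the other subclusters, and 26 of 36 and 9 of 12 nuclei had high Scrublet (doublet) scores. Together they were 48 members (12.2%) with 35 high scores; the other 346 members had 15. By library they held 13.5% and 16.5% of the WT members and 10.4% and 5.56% of the Csf1r+/- members. Of the 42 members with Ebf3 alone, 8 lay in subcluster 4 and 2 in subcluster 9. High Scrublet scores were found in 19.0% of these 42, against 12.4% of those with Otx2os1 alone.

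**Figure D3:**
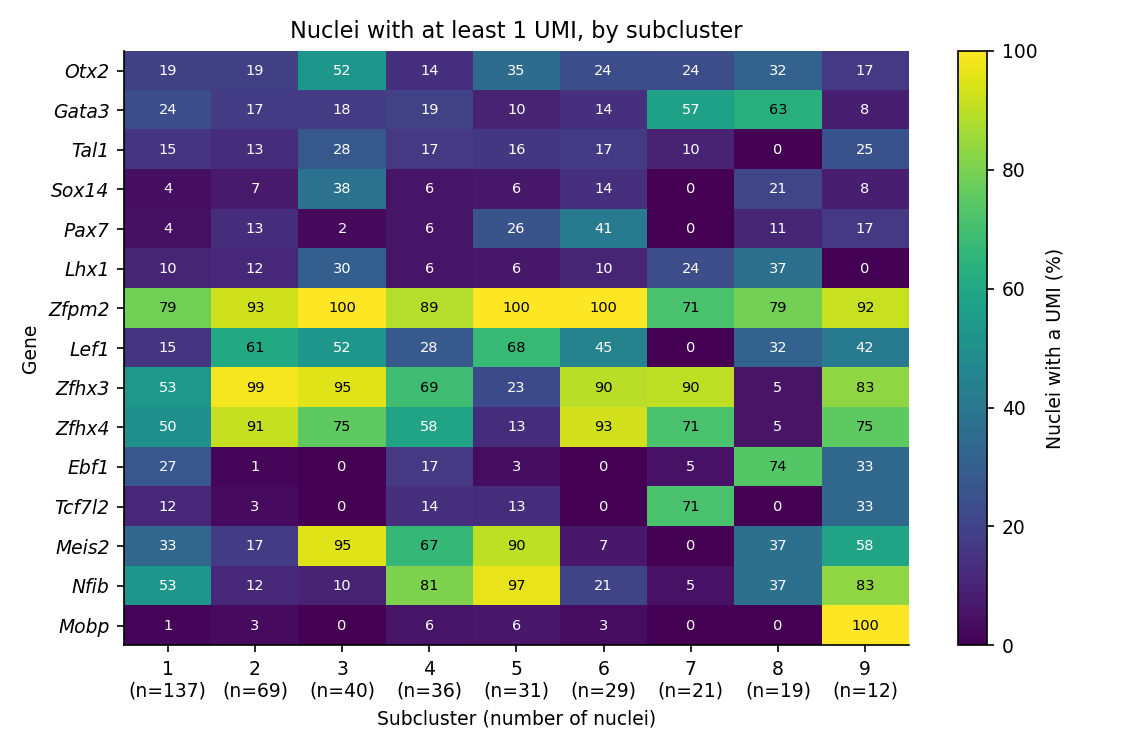
Percent of nuclei with at least 1 UMI of each gene (rows) in the 9 subclusters of the members (columns, with their number of nuclei); color and printed number give the same percent. Sox14 peaks in subcluster 3, Pax7 in subcluster 6, Tcf7l2 in subcluster 7, Ebf1 in subcluster 8 and Mobp in subcluster 9.

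Subcluster shares were compared between genotypes over libraries. Subcluster 7 held 3.60% and 2.61% of the WT members and 6.25% and 11.1% of the Csf1r+/- members, a difference of 5.57 points. Subcluster 4 differed by -2.72 points and subcluster 5 by -2.43 points. Subcluster 9 held 2.70% and 6.96% of the WT members and 1.04% and 0% of the Csf1r+/- members. The libraries of subclusters 4, 5, 7 and 9 did not overlap between genotypes (exact permutation p = 0.3333 each, the smallest possible). Subcluster 3 differed by -0.103 points and subcluster 2 by -1.33 points. No subcluster could reach a p under 0.05 in this design.

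To ask what Csf1r heterozygosity changed in these neurons, UMIs were summed over the members of each library and tested with edgeR's quasi-likelihood test across 7904 genes. At an unadjusted p under 0.01, the threshold of the study, 86 genes differed, 28 higher and 58 lower in Csf1r+/-. These are 1.09% of the genes tested (0.354% higher and 0.734% lower), a share close to the threshold itself. Scaled by library totals alone, 72 genes differed, 30 higher and 42 lower. Without WT replicate 2 the higher and lower genes were close in number. At an adjusted p under 0.05 (Benjamini-Hochberg) 2 genes passed (0.0253%), Dach2 higher and Rnf220 lower. The levels below are CPM after TMM scaling. Each library came from 1 mouse, and the p-values rest on 2 libraries a genotype. A gene was tested if at least 10% of the members of either genotype held a UMI, and a gene that met this in its higher genotype only was favored to differ. This was so for 16 of the 28 higher and 15 of the 58 lower genes, and 1130 of the 7904 genes tested met the filter in 1 genotype only. With no such filter 0 genes passed at an adjusted p under 0.05 (519 at an unadjusted p under 0.05, edgeR).

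Dach2, a nuclear factor of the dachshund family on chromosome X, stood at 22.2 and 10.9 CPM in WT and at 52.3 and 85.7 CPM in Csf1r+/-. The genotypes did not overlap, and the log2 fold change was 2.00 (SE 0.36, adjusted p = 0.0470, edgeR). A Dach2 UMI was found in 6.19% of the WT and 14.3% of the Csf1r+/- members, so it met the filter in Csf1r+/- only. Its log2 fold change stayed between 1.59 and 2.60 when any 1 library was left out. With at least 3 UMIs of Otx2os1 plus Ebf3 required, it was 0.80 (unadjusted p = 0.108, edgeR). Of its 17, 8, 40 and 45 UMIs, subcluster 7 held 5, 0, 17 and 26 and subcluster 1 held 3, 0, 14 and 14. Subcluster 7 was also a larger share of the Csf1r+/- members, and without it Dach2 fell under the detection filter.

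Rnf220, a ubiquitin ligase, stood at 116 and 164 CPM in WT and at 60.2 and 40.0 CPM in Csf1r+/-. Both Csf1r+/- libraries were below both WT libraries, and the log2 fold change was -1.44 (SE 0.25, adjusted p = 0.0470, edgeR). It stayed between -1.82 and -1.17 when any 1 library was left out, and was -1.36 without subclusters 4 and 9. Of the 89, 120, 46 and 21 Rnf220 UMIs, subcluster 9 held 15, 77, 15 and 0, so it carried much of the level of WT replicate 2. In the other GABA nuclei the log2 fold change of Rnf220 was -0.73 (unadjusted p = 0.0218, edgeR).

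Among genes higher in Csf1r+/- at an unadjusted p under 0.01, Ttf1, the transcription termination factor of RNA polymerase I, stood at 10.4 and 8.21 CPM in WT and at 35.3 and 28.6 CPM in Csf1r+/-. Its log2 fold change was 1.77 (SE 0.45). Col25a1, a transmembrane collagen of neurons, stood at 275 and 266 CPM in WT and at 387 and 453 CPM in Csf1r+/-, with a log2 fold change of 0.63 (SE 0.17). With at least 3 Otx2os1 plus Ebf3 UMIs required, the log2 fold changes were 1.13 for Ttf1 (unadjusted p = 0.0357, edgeR) and 0.39 for Col25a1 (unadjusted p = 0.0461, edgeR). Ttf1 was at 1.58 without Csf1r+/- replicate 1 (unadjusted p = 0.0177, edgeR). Col25a1 was at 0.61 without WT replicate 2 (unadjusted p = 0.0112, edgeR) and at 0.51 without Csf1r+/- replicate 2 (unadjusted p = 0.0258, edgeR). The 8 other genes named by the rule were Lca5l, Gm26827, Thsd4, Mob1a, L3mbtl4, Nap1l5, Rbm11 and Satb1, with log2 fold changes from 0.76 (Nap1l5) to 2.60 (Mob1a, which had 0 UMIs in WT replicate 2). Ttf1, Lca5l, Gm26827, Mob1a and Rbm11 met the detection filter in Csf1r+/- only. Satb1 is a chromatin organizer with a log2 fold change of 0.88. Without Csf1r+/- replicate 2 the log2 fold change was 0.45 for Satb1 (unadjusted p = 0.146, edgeR), 0.40 for L3mbtl4 (unadjusted p = 0.255, edgeR), 0.47 for Thsd4 (unadjusted p = 0.0731, edgeR) and 1.45 for Lca5l (unadjusted p = 0.0247, edgeR). Without WT replicate 1 that of Gm26827 was 1.21 (unadjusted p = 0.0154, edgeR). Without WT replicate 2 the value was 0.49 for Nap1l5 (unadjusted p = 0.0620, edgeR), 1.68 for Mob1a (unadjusted p = 0.0262, edgeR) and 1.87 for Rbm11 (unadjusted p = 0.0249, edgeR). The WT and Csf1r+/- libraries of these genes did not overlap, as the rule for naming them required for all but Satb1; 33.2% of all genes tested did not overlap.

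Among genes lower in Csf1r+/-, Ptgds, the prostaglandin D synthase of glia and meninges, stood at 22.2 and 65.7 CPM in WT and at 5.23 and 7.62 CPM in Csf1r+/- (log2 fold change -2.78, SE 0.56). Apoe, the lipid carrier of astrocytes and microglia, stood at 53.5 and 174 CPM in WT and at 31.4 and 28.6 CPM in Csf1r+/- (log2 fold change -1.90, SE 0.39). Cst3, the protease inhibitor cystatin C, fell by 1.46 on the log2 scale, and the oligodendrocyte factor St18 had a log2 fold change of -1.501. Mbp, a myelin protein, stood at 45.7 and 233 CPM in WT and at 82.4 and 15.2 CPM in Csf1r+/-. In most of these genes WT replicate 2 was the highest library. Without it the log2 fold change was -0.82 for Apoe (unadjusted p = 0.0357, edgeR), -0.70 for Cst3 (unadjusted p = 0.0524, edgeR), -0.62 for St18 (unadjusted p = 0.105, edgeR) and 0.22 for Mbp (unadjusted p = 0.682, edgeR), and Ptgds was below the detection filter. Ptgds and St18 met that filter in WT only, and the libraries of Mbp overlapped between genotypes. Without subclusters 4 and 9 the log2 fold change was -1.48 for Apoe (unadjusted p = 4.00e-05, edgeR) and -1.49 for Cst3 (unadjusted p = 2.99e-05, edgeR). That of Mbp was then -0.95 (unadjusted p = 0.0323, edgeR), and Ptgds and St18 were below the filter.

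The summed level of the 9 oligodendrocyte genes differed between libraries, and over all members it overlapped between genotypes. It was 213 and 972 CPM in the WT members and 286 and 58.9 CPM in the Csf1r+/- members, with Mbp the most abundant, and 78.0, 178, 65.5 and 62.7 CPM without subclusters 4 and 9. All 3 genes of this list that were tested fell, Mbp and St18 among them, where 3995 of 7904 genes tested were lower. Of the 8 astrocyte genes, 3 had at least 10 UMIs and 2 had 0 UMIs, with a summed level of 162, 221, 153 and 103 CPM led by Slc1a2. Of the 10 microglia genes, 7 had at least 10 UMIs, with a summed level of 81.2, 169, 73.1 and 127 CPM led by P2ry12, which lies within another gene, Med12l. The 8 vascular genes summed to 78.6, 15.3, 10.6 and 15.2 CPM. The part of RNA from these cell types in the genotype result was not tested.

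Other genes lower in Csf1r+/- were Cacna2d1, Lhfp, Frem1 and Zfhx3. Cacna2d1, the alpha2delta subunit of voltage-gated calcium channels, stood at 406 and 208 CPM in WT and at 167 and 112.3 CPM in Csf1r+/-, with a log2 fold change of -1.11 (SE 0.25). Subclusters 4 and 9 carried it at 720 and 379 CPM of summed UMIs; its log2 fold change was -1.75 without them, -0.66 (unadjusted p = 0.00601, edgeR) with high Scrublet scores removed and -0.54 (unadjusted p = 0.0367, edgeR) without WT replicate 1. Lhfp stood at 141 and 146 CPM in WT and at 79.8 and 66.6 CPM in Csf1r+/- (log2 fold change -0.96, SE 0.21, and -1.45 with high Scrublet scores removed). Frem1, an extracellular matrix protein that met the detection filter in WT only, fell by 1.79 on the log2 scale. Zfhx3 stood at 728 and 758 CPM in WT and at 578 and 463 CPM in Csf1r+/- (log2 fold change -0.51, SE 0.17, unadjusted p = 0.00700, adjusted p = 0.817, edgeR). Its unadjusted p was 0.0176 without WT replicate 1, 0.0329 without WT replicate 2 and 0.0985 without Csf1r+/- replicate 2 (edgeR).

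**Figure D4:**
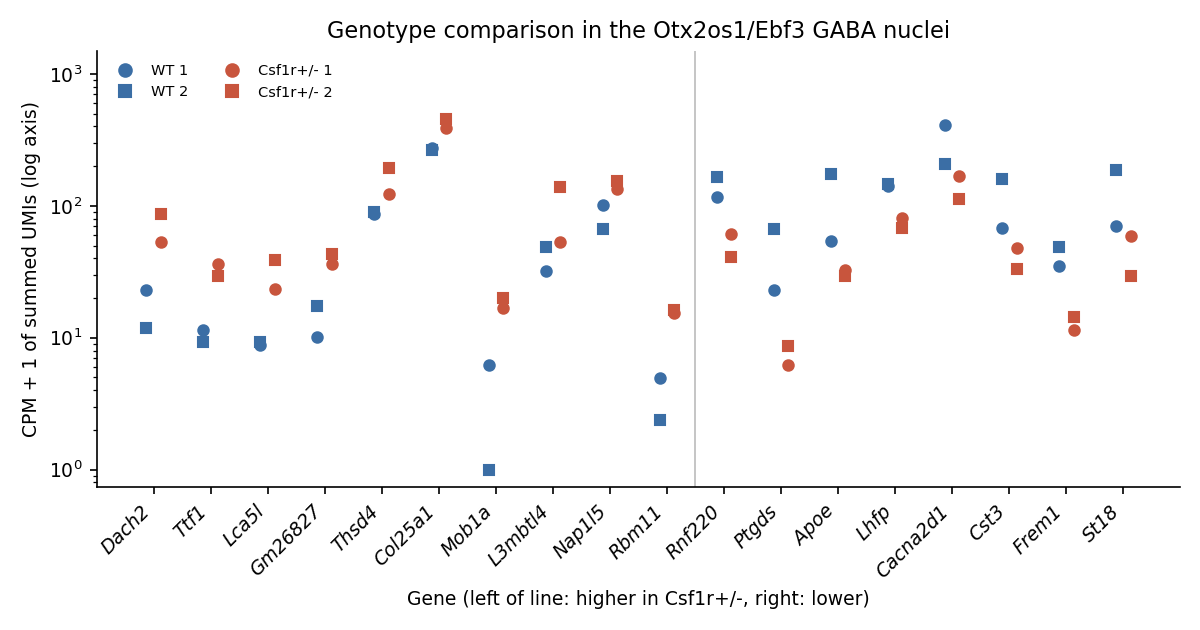
Levels (TMM-scaled CPM plus 1, log axis) in the members of each library for the 10 genes with the smallest p higher in Csf1r+/- (left of the line) and for 8 genes lower (right). The genes were chosen among those with no overlap between genotypes (33.2% of all genes tested); in Ptgds, Apoe, Cst3 and St18 WT replicate 2 stands well above the other libraries.

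The midbrain and hindbrain factors gave no pass in the genotype test. All 7 tested genes of that list were higher in Csf1r+/- and 0 passed, with a median log2 fold change of 0.20 against -0.00255 over all genes; without subclusters 4 and 9, 3 of the 7 were lower. Of 22 tested GABA and glycine receptor genes, 12 were higher, 10 lower and 0 passed. Of 22 glutamate receptor genes 0 passed, and likewise 0 of 26 potassium channel genes. Of 21 sodium, calcium and HCN channel genes only Cacna2d1 passed. Satb1 passed among 7 tested cortical interneuron genes and 4 pallidal factors, Zfhx3 among 5 prethalamic factors and Nrgn among 6 excitatory genes. Over all genes tested 1.09% passed, 0.354% higher and 0.734% lower. The release machinery (7 tested), pan-neuronal genes (6), striatal genes (7), cerebellar genes (4), thalamic genes (2), Ebf relatives (2), immediate early genes (4), microglia genes (2) and astrocyte genes (1) gave 0 passes.

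Of 84 ribosomal protein genes 67 were tested, 59 were lower and 5 passed (Rps29, Rplp1, Rpl37a, Rpl23a and Rps10), all of them lower, where 0.734% of all genes passed lower. Rpl23a met the detection filter in WT only, and with no such filter it did not pass (unadjusted p = 0.0107, edgeR). The median log2 fold change of the 67 was -0.48. Rps29 stood at 36.5 and 72.5 CPM in WT and at 23.6 and 17.1 CPM in Csf1r+/- (log2 fold change -1.37, SE 0.37, unadjusted p = 0.00106, edgeR). Rpl37, which the study names, had a log2 fold change of -1.13 (unadjusted p = 0.0152, edgeR) and did not pass. WT replicate 2 was the highest library for 4 of the 5 that passed, the exception being Rps10, and without it the median was -0.11, with 36 of 66 genes lower and 1 passing. Of 69 tested genes of the respiratory chain, 31 were lower, 38 higher and 0 passed.

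Of 2 tested metallothioneins Mt1 passed, and of 20 tested genes of zinc, iron and copper handling Fth1 and Ftl1 passed. All of these were lower, where 0.734% of all genes tested passed lower. Mt1 and Ftl1 met the detection filter in WT only. Mt1, a metallothionein that binds zinc and copper, stood at 17.0 and 45.2 CPM in WT and at 7.85 and 5.71 CPM in Csf1r+/- (log2 fold change -2.12, SE 0.55, unadjusted p = 0.000831, edgeR), from 13, 33, 6 and 3 UMIs. Without WT replicate 2 it was -1.26 (unadjusted p = 0.0600, edgeR). Mt3, the metallothionein of brain, stood at 22.2 and 47.9 CPM in WT and at 22.2 and 19.0 CPM in Csf1r+/-, with a log2 fold change of -0.73 that did not pass (unadjusted p = 0.0844, edgeR). Mt2 was below the detection filter. Of the 20 genes of zinc, iron and copper handling, 10 were lower and 10 higher. The ferritin chains Fth1 and Ftl1 had log2 fold changes of -1.25 and -1.71, and Ftl1 was at -1.29 without Csf1r+/- replicate 1 (unadjusted p = 0.0622, edgeR). Without WT replicate 2 the log2 fold change of Fth1 was -0.41 (unadjusted p = 0.200, edgeR), Ftl1 was below the detection filter, and 0 genes of the list passed. Of 7 tested genes of lipid transport and glycolysis 6 were lower and Apoe passed, where 3995 of 7904 genes tested were lower. Their median log2 fold change was -0.58, and -0.32 without WT replicate 2. Aldoc, a glycolytic enzyme, had a log2 fold change of -1.30 (unadjusted p = 0.0122, edgeR). Of 16 tested genes of the stress response, which covers the eIF2 kinases and chaperones, 9 were lower and 0 passed.

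Whether the genotype difference was the same in the members and in the other GABA nuclei was tested directly, as an interaction in edgeR with library as a block. At an unadjusted p under 0.01, 129 of 7904 genes (1.63%) differed, and 8 (0.101%) did so at an adjusted p under 0.05. The 8 became 40 without Csf1r+/- replicate 1, 23 without Csf1r+/- replicate 2 and 0 with at least 3 Otx2os1 plus Ebf3 UMIs required. In Dach2 the log2 fold change was 2.00 in the members and -0.05 in the others, where its level was 16.8 and 13.5 CPM for the WT libraries and 13.1 and 16.3 CPM for the Csf1r+/- libraries. In Prkca, protein kinase C alpha, it was -0.69 and 0.19. The members stood at 307 and 367 CPM in WT and at 217 and 198 CPM in Csf1r+/-. In Vwc2l, a secreted von Willebrand C domain protein, it was -0.95 and 0.19. In Col25a1 it was 0.63 and -0.18, and in Cacna2d1 -1.11 and -0.03. In each of these 5 genes the members moved and the other GABA nuclei did not pass the test (unadjusted p from 0.194 to 0.823, edgeR). The interaction used the same detection filter, which Dach2 met in the Csf1r+/- members only, so Dach2 was favored to differ here also.

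Several named genes had the same direction in both kinds of nuclei. Mt1 had a log2 fold change of -2.12 in the members and -1.76 in the others, and the interaction had an adjusted p of 0.972 (edgeR). Apoe had -1.90 and -1.53 (edgeR interaction, adjusted p = 0.919), Fth1 -1.25 and -1.28 (adjusted p = 0.999) and Rps29 -1.37 and -1.31 (adjusted p = 0.991). A p that misses the threshold does not show that the differences were equal. The members and the other GABA nuclei came from the same libraries, so the side-by-side values share their library.

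**Figure D5:**
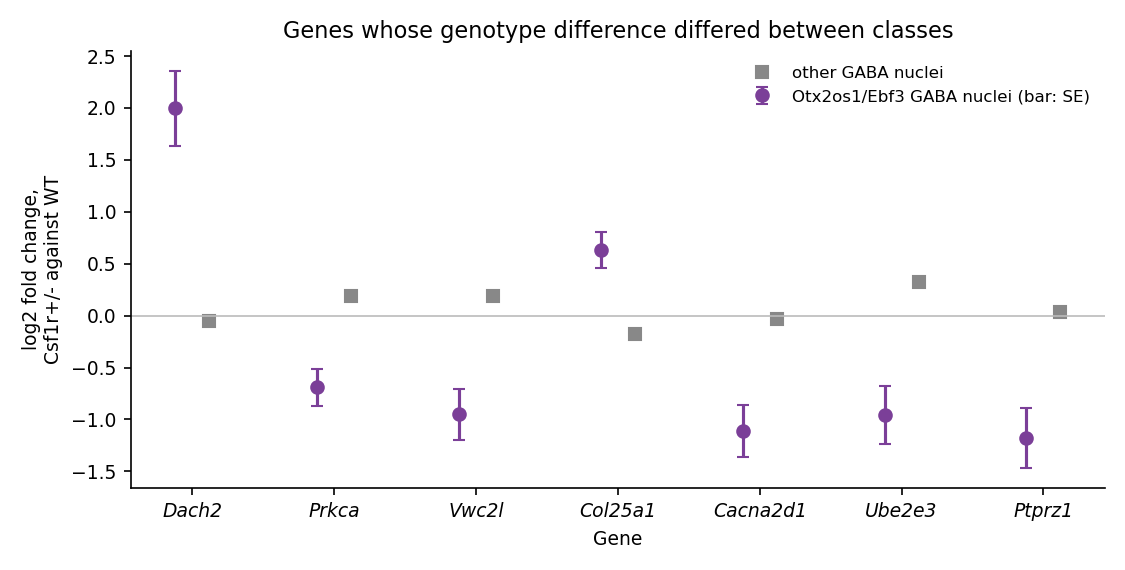
Log2 fold change of Csf1r+/- against WT for 7 of the 8 genes with an interaction at an adjusted p under 0.05, in the Otx2os1/Ebf3 GABA nuclei (circles, bars are SE) and in other GABA nuclei (squares). The members lie between -1.18 and 2.00, and the others between -0.18 and 0.33.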

How the data were processed

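The deposited files hold raw UMI counts per gene and nucleus, made by the authors with Cell Ranger 5.0.0 (matrix header) on mm10 (submitters' processing notes). Libraries of 2 WT and 2 Csf1r+/- mice were analysed; the libraries of the other mice were not used here. The files held 16415, 16301, 9905 and 11369 nuclei. Nuclei with 500 to 50000 UMIs, over 200 genes and under 5% mitochondrial UMIs were kept (16114, 15247, 9589 and 11182), as in the study. Doublets were scored with Scrublet and not removed, except in a stated alternative. Only 1 nucleus that failed these filters met the rule.

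The members, gene lists and tests were chosen with earlier results of these data known. For genotype, UMIs were summed per library and tested with edgeR 4.0.16 (TMM, quasi-likelihood, two-sided) in R 4.3.3. Genes had at least 10 counts in all and a UMI in at least 10% of members of either genotype. The calls used p under 0.01, and adjusted p under 0.05. The 10 rule genes received no p. The test was checked on simulated data. Levels between populations are CPM of summed UMIs; a log2 difference between populations adds 1 CPM. Shares were compared by exact permutation over libraries. Subclusters came from Leiden clustering (scanpy 1.11.5; 20 components, 15 neighbors, resolution 0.5, centered per library) without rule, mitochondrial, ribosomal protein and sex-linked genes.

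Named genes of the genotype comparison were the 10 with the smallest p in each direction among those with p under 0.01 and no overlap between genotypes, plus list genes with p under 0.01 and the genes Mt1, Mt2, Mt3, Apoe, Aldoc, Rpl37 and Rps29. A few genes that met these rules are counted but not reported here. Populations were described by the 20 genes of highest ratio outside the rule, by list genes and, for subclusters, by 5 leading genes. Alternatives covered the test (likelihood ratio, DESeq2 1.42.0), scaling, detection filter, depth, doublets, rule threshold, replicate block and leaving out each library or a subcluster.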

Additional observations from a re-analysis of the deposited data

Results flagged for a closer look

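For 8 genes the difference between Csf1r+/- and WT differed between the Otx2os1/Ebf3 GABA nuclei and the other GABA nuclei at an adjusted p under 0.05 (edgeR interaction test, Benjamini-Hochberg over 7904 genes). The difference of the log2 fold changes, members minus others, was 2.05 for Dach2 (SE 0.36, adjusted p = 0.00642), -0.89 for Prkca (SE 0.16, adjusted p = 0.00642), -1.14 for Vwc2l (SE 0.21, adjusted p = 0.00775) and 0.82 for Col25a1 (SE 0.16, adjusted p = 0.00852). It was -1.07 for Cacna2d1 (SE 0.21, adjusted p = 0.00949), -1.31 for Ube2e3, a ubiquitin-conjugating enzyme (SE 0.27, adjusted p = 0.0204), and -1.23 for Ptprz1, a receptor phosphatase (SE 0.26, adjusted p = 0.0221). In the members the WT and Csf1r+/- libraries of these 7 genes did not overlap, as for 33.2% of all genes tested.

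Ube2e3 stood at 60.03 and 82.1 CPM in the WT members and at 36.6 and 36.2 CPM in the Csf1r+/- members, and its log2 fold change was -0.96 in the members and 0.33 in the others. Ptprz1 stood at 92.7 and 90.3 CPM in WT and at 27.5 and 57.1 CPM in Csf1r+/-, with -1.18 and 0.03. Dach2 was concentrated in subcluster 7, which was 3.60% and 2.61% of the WT members and 6.25% and 11.1% of the Csf1r+/- members; the part of this share in the result was not tested. With at least 3 UMIs of Otx2os1 plus Ebf3 required, 0 genes passed at an adjusted p under 0.05 (424 at an unadjusted p under 0.05), with a smallest adjusted p of 0.0871 (edgeR). The difference for Dach2 was then 0.86 (adjusted p = 0.894, edgeR). Dach2 also met the detection filter in the Csf1r+/- members only. Over the settings tried the difference ran from 0.60 to 1.05 for Col25a1 and from -1.51 to -1.12 for Ube2e3. It ran from -0.97 to -0.78 for Prkca and from -1.24 to -1.11 for Vwc2l. The difference for Cacna2d1 was -0.52 without WT replicate 1 (adjusted p = 0.894, edgeR) and -1.74 without subclusters 4 and 9. That for Ptprz1 was -0.78 without Csf1r+/- replicate 1 (adjusted p = 0.392, edgeR).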

How the results depend on the processing

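With 2 libraries a genotype and 72 to 115 members a library, the genotype calls changed with the processing. The 86 genes at an unadjusted p under 0.01 became 13 with DESeq2's Wald test, and 81 to 135 when 1 library was left out (135 without Csf1r+/- replicate 1). Of the 86, 31 remained without WT replicate 2, 36 without Csf1r+/- replicate 2, 46 without Csf1r+/- replicate 1 and 52 without WT replicate 1. The 2 genes at an adjusted p under 0.05 became 13 with the likelihood-ratio test, 0 under any of DESeq2, scaling by RLE or by totals only, testing without the detection filter, a threshold of 3 Otx2os1 plus Ebf3 UMIs, or without subcluster 7, and 1 with high Scrublet scores removed, which was Lhfp (adjusted p = 0.0163, edgeR) and neither Dach2 nor Rnf220. DESeq2 called 64 genes at an unadjusted p under 0.05, against 382 with edgeR's quasi-likelihood test. Without subclusters 4 and 9 there were 106 genes at p under 0.01, 57 of them among the 86, and 8 at an adjusted p under 0.05; leaving out subclusters 4 and 9, or 7, was chosen after seeing the data. Leaving out 1 library gave 0 to 24 genes at an adjusted p under 0.05 (24 without WT replicate 1). The cause of these changes was not tested.

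The labels do not say whether the replicate numbers pair libraries of the 2 genotypes. Deviations of same-numbered libraries from their genotype means had r = -0.0140 across 7904 genes. Counting noise enters this r, so it cannot exclude a shared batch. With the replicate block 86 genes passed at p under 0.01, 77 of them among the 86 above, and 5 at an adjusted p under 0.05.

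The interaction gave 129 genes, and 96 to 199 when 1 library was left out (199 without Csf1r+/- replicate 1). Its 8 genes at an adjusted p under 0.05 became 7 to 40 when 1 library was left out, 18 with the likelihood-ratio test and 12 without subclusters 4 and 9. The share difference of 0.101 points was 0.397 points over Gad1 plus Gad2 nuclei, and -0.0777 to 0.280 points when 1 library was left out; it was -0.0777 without Csf1r+/- replicate 1. The count of 31 region and transmitter genes became 20 after thinning. Resolution 1 gave 11 subclusters in place of 9. Of 540 values of the 35 named genes under alternatives, 435 kept their direction and side of the threshold, 97 lost the call and 7 gained it. The 1 that reversed was Mbp, with a log2 fold change of 0.22 without WT replicate 2 and from -3.18 to 0.22 over the 4 libraries left out in turn. Fits in which a named gene was not tested are not among the 540. The settings were unequal: with DESeq2 22 of the 35 genes lost the call, and with at least 1000 UMIs per nucleus all 35 stayed the same.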

Other observations

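Genes that mark the members were not confined to GABA nuclei. In 2232 nuclei with at least 2 Slc17a6 UMIs, glutamatergic neurons mostly found below the cortex, Lef1 averaged 185 ± 14.7 CPM, against 94.5 ± 26.0 CPM in the members (SD, n = 4 libraries). Ebf3 averaged 51.4 CPM and Ebf1 165 CPM there, while Otx2os1 averaged 6.20 CPM and Gata3 0.0594 CPM. In 180 striatal projection nuclei chosen by Drd1 or Drd2, Otx2os1 averaged 32.0 CPM and Lef1 6.10 CPM.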
